A study of Mus musculus with 86 samples.

Results

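The liver of male 129SvJ/Iso mice carrying 1 targeted allele of Dll1 was compared with wild-type liver of the same strain on 12 2-channel cDNA arrays, out of 86 arrays in the whole series. The arrays were chosen by their labels, which name the strain, the organ and the Dll1 line, and no measured value was used in the choice. They covered 4 heterozygous animals, numbered within their strain as mouse 1, 2, 3 and 5, out of 10 heterozygous animals in the series. The animals were heterozygous (+/-) for the allele Dll1tm1Gos, in which a lacZ reporter inserted into the gene disrupts the coding sequence, and were 16 weeks old. On every array the other channel held 1 pool of wild-type 129SvJ/Iso male liver RNA of the same age. The labels list 4 animals in this pool, whereas the labelling protocol speaks of 6 control animals. The pool counted as 1 control sample, so the spread between wild-type animals was not measured, and a shift shared by all 4 animals cannot be told apart from a property of the pool. For comparison, 10 liver arrays of 5 heterozygous males of the C3H line (15 weeks, against a C3H wild-type pool) and 15 spleen arrays of 5 heterozygous 129SvJ/Iso males were used.

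Dll1 encodes Delta-like 1, a membrane ligand of the Notch receptors. Binding of a ligand on a neighbouring cell leads to cleavage of the receptor by an ADAM protease and then by gamma-secretase, and the released intracellular part joins the DNA-binding protein RBPJ and Mastermind-like co-activators to switch on genes of the Hes and Hey families. In the liver this pathway is best known for the formation of bile ducts and for its activity in endothelium. Most of the RNA of a whole liver comes from hepatocytes, which make plasma proteins, oxidise fatty acids, dispose of ammonia and detoxify foreign compounds. In such bulk RNA, fewer cells of a type and less RNA per cell cannot be told apart.

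All values below are log2 ratios, likely of heterozygous over wild-type RNA. The sources do not name the numerator. The direction rests on the observation that each deposited value equals the log2 of a scanner ratio with 3 decimals, turned according to the dye of the heterozygous RNA, plus 1 constant per array. If the scanner wrote Cy5 over Cy3, the usual order, a positive value means more RNA in the heterozygous liver. Each animal had arrays in both dye orientations, and its arrays were averaged within each orientation and then over both.

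The 129SvJ/Iso liver arrays held between 13505 and 17587 values for 20794 probes. On average 23.5% of the spots of an array could not be used, against 3.07% in C3H liver. The median absolute deviation of the values of an array lay between 0.673 and 1.04, against 0.161 to 0.412 in C3H liver. Usable values in both orientations were left for 18377 probes in mouse 1, 16560 in mouse 2, 9229 in mouse 3 and 13922 in mouse 5. Mouse 3, with 1 array per orientation, therefore contributed least. The median SD of a probe over the animals was 0.661, against 0.253 in C3H liver. Arrays of 1 animal in opposite orientations correlated with a median Spearman coefficient of 0.164, lowest in mouse 3 at -0.028 and highest in mouse 2 at 0.286. Arrays of different animals in opposite orientations correlated with a median of 0.107. These correlations run across probes, which are not independent, and all arrays share the wild-type pool. A ratio holds no level, so the tissue could be checked only by which spots gave a value. Probes of hepatocyte markers gave one on 89.6% of the liver arrays, against 76.3% in spleen and 74.6% in brain of the same strain. All probes together gave one on 76.5%, 73.0% and 78.1%. Erythroid probes gave one on 91.0%, 92.8% and 90.7%, and pancreas acinar probes on 90.0%, 85.3% and 82.9%. Muscle probes were also highest in liver, at 80.6%, 66.7% and 74.6%. A high share in liver was therefore not limited to hepatocyte markers, and the check is weak.

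No probe differed from the wild-type pool after adjustment for multiple testing. Of the 13462 probes measured in 3 or more animals, 0 (0%) passed an adjusted p of 0.05 in the limma test of the 4 animals, with the lowest adjusted p at 0.346. Without adjustment, 1058 probes (7.86%) were above 0 and 841 (6.25%) below 0 at a p under 0.05. On the level of genes, with the probes of a symbol averaged, 0 of 6715 (0%) passed, with the lowest adjusted p at 0.324. At an unadjusted p under 0.05, 498 genes (7.42%) were above 0 and 482 (7.18%) below 0. Among the 2243 genes with a value on all 12 arrays, 2.81% were above 0 and 16.4% below 0 at that level. Both sets of shares are the background for the counts of genes that follow. A fit to all 12 arrays with the animal as a random block, in which arrays of 1 animal add to the evidence, called 589 probes and 353 genes, of which 53 genes were above 0 and 300 (4.47% of those tested) below 0. With 4 animals an exact sign-flip test of a single value cannot go below a two-sided p of 0.125.

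The signs of the animals were uneven. Of 3707 probes with 1 gene symbol and values in all 4 animals, 1001 (27.0%) were below 0 in every animal and 305 (8.23%) above 0 in every animal. The ratio also moved with the completeness of a probe. Probes with a value on 5 to 7 of the 12 arrays had a median of 0.43, those on 8 or 9 arrays 0.37, those on 10 or 11 arrays 0.12 and those on all 12 arrays -0.32. In C3H liver the same probes had medians of 0.07, 0.06, 0.05 and -0.05. Of the 3533 complete probes 70.2% were below 0. The part of spot brightness in this gradient was not tested, since intensities were not used here. Genes of low and of complete coverage are therefore described with their number of arrays where it matters.

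**Figure D1:**
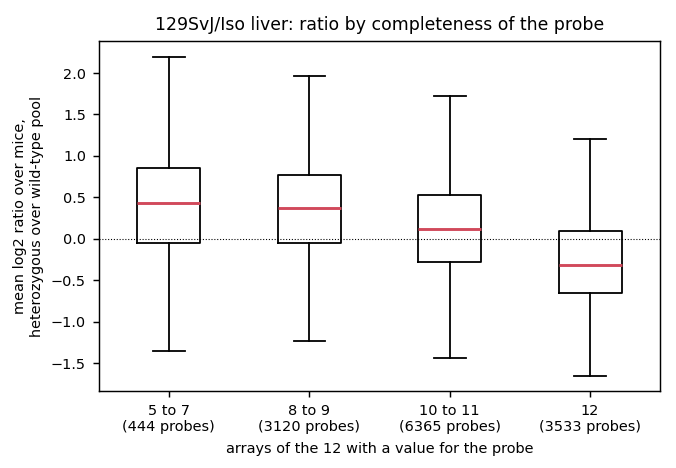
Mean log2 ratio over the heterozygous 129SvJ/Iso animals (y axis) for probes grouped by how many of the 12 arrays gave a value (x axis); boxes span the quartiles, red lines are medians and whiskers reach 1.5 times the box. The median is 0.43 for probes on 5 to 7 arrays and -0.32 for probes on all 12.

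The targeted gene was examined first. The 2 Dll1 probes, averaged, gave -0.20 in mouse 1, -0.73 in mouse 2, 1.35 in mouse 3 and 1.03 in mouse 5. Mice 1 and 2 lay below the wild-type pool and mice 3 and 5 above it, so the animals fell on both sides of 0. The mean was 0.36 ± 0.99 (SD, n = 4), with a limma p of 0.392, and it turned to -0.22 when spots at the extreme constant of an array were kept. Averaged within each orientation over the animals with a value there, and then over the probes, arrays with the heterozygous RNA in Cy5 gave 0.94 and those with it in Cy3 gave -0.60, so the orientations disagreed as well. Values by orientation of the genes below were computed in the same way. In C3H liver the same gene had a mean of -0.30. The study states that Dll1 is not expressed in the liver. Neither Dll1 probe gave a value on more than 9 of the 12 arrays, and probes on 8 or 9 arrays had a median of 0.37. The sources also do not say where the probes lie relative to the lacZ insertion. The values therefore do not check the genotype.

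Of the other ligands and receptors on the array, Dlk1, Notch1, Notch3 and Notch4 could be tested, and none had a p under 0.05. Dlk1, an atypical ligand of the Delta family, had 1.93 in mouse 1, -0.43 in mouse 2 and 2.26 in mouse 5, with a mean of 1.25 ± 1.47 (SD, n = 3). Notch4, the receptor of endothelium, had 1.08, -2.21 and 1.91 in the same animals, again with mouse 2 below 0. Notch1 averaged -0.08 ± 1.17 and Notch3, a receptor of vessel wall cells, -0.06 ± 0.18 (SD, n = 3 each). The 3 values of Notch3 lay between -0.26 and 0.07, closer together than those of the other receptors. Dll3, Jag1, Jag2 and Notch2 had values in fewer than 3 animals.

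Among 7 tested target genes of the pathway, 1 had a p under 0.05 and none passed adjustment. Hes6, a Hes family member that counteracts Hes1, had -0.77, -0.98, -0.54 and -0.33 in mice 1, 2, 3 and 5. All 4 animals were below the wild-type pool, with a mean of -0.65 ± 0.28 (SD, n = 4) and a limma p of 0.0428 (adjusted p 0.331). Hes6 was measured on all 12 arrays, where the median of all genes was -0.26. Hes1, the classical target, had 0.84 and 0.78 in mice 1 and 2 and 0.00 in mouse 5, with a mean of 0.54 ± 0.47 (SD, n = 3). Hey1 ran between -1.51 in mouse 3 and 0.63 in mouse 1, and Sox9, a transcription factor of bile duct cells, between -0.77 in mouse 5 and 0.37 in mouse 3. The targets thus lay on both sides of 0, with 4 above it and 3 below.

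Of 19 tested modifiers and mediators, 10 were above 0 and 9 below, with a median of 0.02 against 0.04 over all genes. At a p under 0.05, 2 were above 0 and 1 below, beside a background of 7.42% and 7.18%. Lfng, the glycosyltransferase Lunatic fringe that modifies Notch receptors and tunes their response to ligands, had 1.86 in mouse 1, 1.13 in mouse 2 and 1.70 in mouse 5, with no usable value in mouse 3. All 3 animals were above the wild-type pool, with a mean of 1.56 ± 0.38 (SD, n = 3) and a limma p of 0.00279 (adjusted p 0.324). The arrays with heterozygous RNA in Cy3 gave 2.24, whereas those with it in Cy5 gave 0.30. Snw1, a co-regulator that binds RBPJ complexes, had 1.94, 0.57 and 1.48 in the same animals (mean 1.33, limma p 0.0117), likewise with 2.22 in the Cy3 and 0.44 in the Cy5 orientation. Ctbp1, a co-repressor, had -0.84, -0.97, -0.25 and -0.89 in mice 1, 2, 3 and 5, with a mean of -0.74 ± 0.33 (SD, n = 4) and a limma p of 0.029. The ligand-cleaving or receptor-cleaving components Adam17 (-0.67 ± 0.98) and Aph1a (0.38 ± 1.02, SD, n = 3 each) had animals on both sides of 0, as did Maml1, a Mastermind-like co-activator, at -0.46 ± 0.63 (SD, n = 4).

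**Figure D2:**
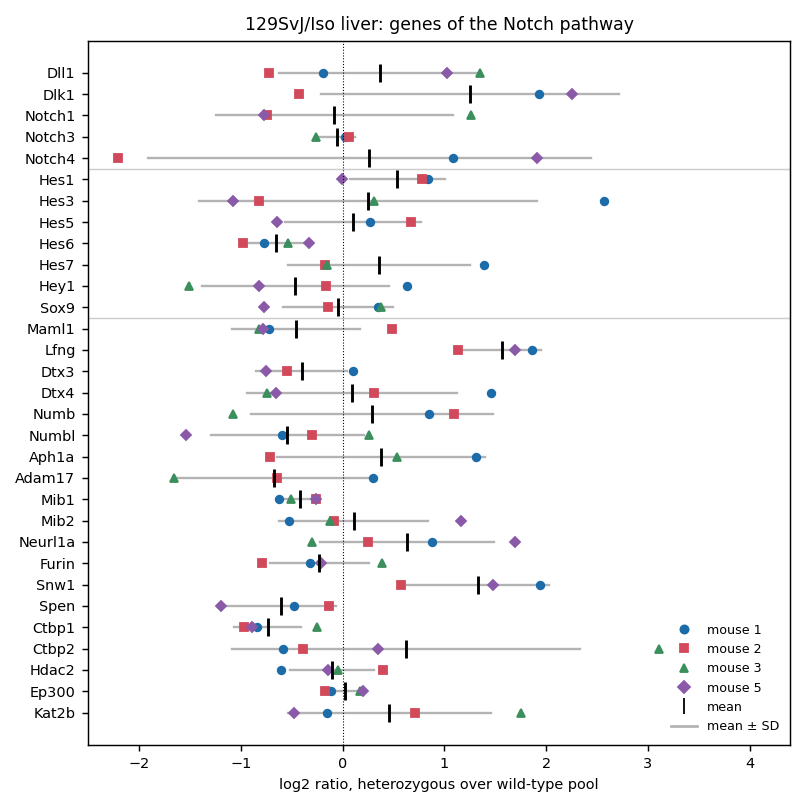
Log2 ratio, likely heterozygous over wild-type pool (x axis), of every tested Notch pathway gene in 129SvJ/Iso liver; symbols are animals, black bars their mean and grey lines the mean ± SD, with ligands and receptors, targets, and modifiers from top to bottom. Hes6 and Ctbp1 lie below 0 in all 4 animals and Lfng above 0 in all 3 measured, whereas Dll1 has 2 animals on each side.

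Dll1 lies on chromosome 17, and flanking DNA of the targeted chromosome is inherited with it. Of 22 tested genes listed as its neighbours, 13 were above 0 and 9 below, with a median of 0.09. Only Rnaset2b, a ribonuclease, had a p under 0.05, with values between -1.57 in mouse 5 and -0.24 in mouse 3 and a mean of -0.84 ± 0.57 (SD, n = 4). Psmb1, a proteasome subunit encoded beside Dll1, had -0.23, -1.20, -0.29 and -0.83, also below 0 in every animal, with a limma p of 0.063. The neighbours as a group showed 0 genes at a p under 0.05 above 0 and 1 below.

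Genes of hepatocyte function lay below the wild-type pool. Of 27 tested hepatocyte secreted and marker genes, 23 were below 0, and 15 (55.6%) were below 0 at a p under 0.05, against 7.18% of all genes. None was above 0 at that level and none passed adjustment. Their median was -0.74, against 0.04 over all genes and -0.26 over the 2243 genes with a value on all 12 arrays. The 19 members with a value on all 12 arrays were all below 0, 13 of them (68.4%) at a p under 0.05 against 16.4% of the complete genes, with a median of -0.74. By animal, the median was -0.74 in mouse 1, -1.32 in mouse 2, -0.24 in mouse 3 and -0.58 in mouse 5. Mouse 2 was lowest and mouse 3 closest to the pool, and without mouse 2 the median was -0.53. All 15 genes were below 0 in both dye orientations, but they had been chosen by the average of these. Over all 27 genes the median was -0.65 in the Cy5 and -0.61 in the Cy3 orientation. Over all genes it was 0.06 and 0.01.

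Apoc1, an apolipoprotein of plasma lipoproteins, had -1.16 in mouse 1, -1.79 in mouse 2 and -3.28 in mouse 5, with no usable value in mouse 3. Its mean of -2.08 ± 1.09 (SD, n = 3, limma p 0.00348) was the lowest of the group. Tat, tyrosine aminotransferase, had -1.26, -1.88, -0.57 and -0.94 in mice 1, 2, 3 and 5 (mean -1.16 ± 0.55, SD, n = 4, limma p 0.006). Rbp4, the plasma carrier of retinol, had -1.16, -2.08, -0.40 and -0.64, and all animals were below the pool for both genes. Alb, serum albumin, had -0.53, -0.98, -0.70 and -0.54, with a mean of -0.69 ± 0.21 (SD, n = 4), the smallest SD among the genes of the group named here. Ttr, the thyroid hormone carrier transthyretin, averaged -0.91, Apoa2 -0.93, Apoe -0.74 and the antitrypsin gene Serpina1b -0.78. The mean of Ttr turned to 0.47 when spots at the extreme constant were kept. Serpina1b and Serpina1d are near-identical copies whose cDNA probes may share signal, so their values are uncertain as separate measurements. The 4 members above 0, named after their values were seen, were Fbp1, Afm, Hnf4a and Cebpa, and each had animals on both sides of the pool. Hnf4a and Cebpa, which encode hepatocyte transcription factors, averaged 0.22 ± 0.48 (SD, n = 3) and 0.22 ± 1.45 (SD, n = 4).

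**Figure D3:**
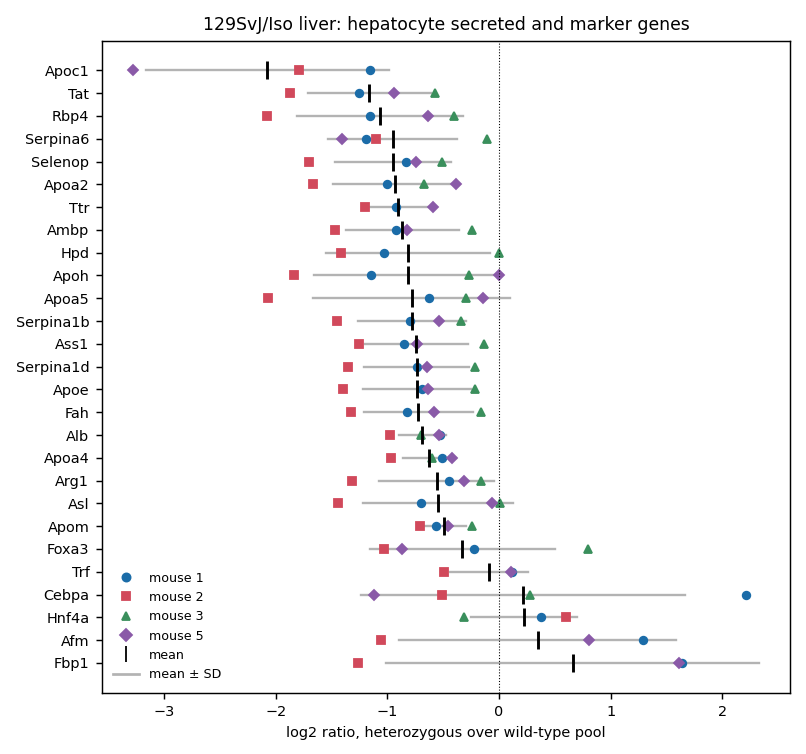
Log2 ratio, likely heterozygous over wild-type pool (x axis), of the 27 tested hepatocyte secreted and marker genes in 129SvJ/Iso liver; symbols are animals, black bars their mean and grey lines the mean ± SD. Means run from -2.08 for Apoc1 to 0.66 for Fbp1, and mouse 2 has the lowest or nearly the lowest value of most genes.

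The start regions of these genes were read from RefSeq, build GRCm38.p6, in windows of 300 bases that begin upstream of the start and end shortly after it, where 21 of the 27 genes were found. The letters GTTAAT on either strand, a part of the binding sequence of the hepatocyte factor HNF1, were present for 6 genes (28.6%), against 8.24% of 27025 genes. Of the 6 genes, 4 had a mean below 0 (Alb, Apoe and the near-identical Serpina1b and Serpina1d) and 2 above 0 (Afm and Hnf4a), so the letters were found on both sides of the pool. TATAAA was present for 38.1% against 15.7%, and CCAAT for 52.4% against 41.1%. CAAAGTCCA, a form of the HNF4 site, was found for 0 of the 21 genes, which says only that these letters are not in these windows. GTTAAT was present for 7.69% of the ribosomal protein genes and 0% of the respiratory chain genes described below. A match of letters is a description of the sequence, not a binding site. The windows of Alb (chr5:90460620-90460919, plus strand) and Serpina1b (chr12:103738140-103738439, minus strand) are printed to show the match in a gene below 0 in every animal, with GTTAAT in capitals.
Alb: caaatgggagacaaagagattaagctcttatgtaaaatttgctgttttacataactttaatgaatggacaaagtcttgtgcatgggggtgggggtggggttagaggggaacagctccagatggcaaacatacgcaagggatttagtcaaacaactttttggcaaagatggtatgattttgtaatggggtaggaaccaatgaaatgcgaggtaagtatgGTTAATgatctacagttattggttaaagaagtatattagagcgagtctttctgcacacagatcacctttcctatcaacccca
Serpina1b: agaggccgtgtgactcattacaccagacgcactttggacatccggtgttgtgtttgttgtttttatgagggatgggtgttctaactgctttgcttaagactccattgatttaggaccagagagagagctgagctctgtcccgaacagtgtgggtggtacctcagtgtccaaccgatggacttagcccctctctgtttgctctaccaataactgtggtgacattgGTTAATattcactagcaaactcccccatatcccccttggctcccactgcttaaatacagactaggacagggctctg

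Genes of fatty acid oxidation and ketogenesis had the lowest median of the 25 lists with at least 5 tested genes, markers of cell types aside, at -0.89 over 19 genes. Of these 17 were below 0 and 11 were below 0 at a p under 0.05, with 0 above at that level, and of the 14 complete members 9 were below at that level (64.3%, against 16.4%). Without mouse 2 the median was -0.59. The median was -0.80 in mouse 1, -1.54 in mouse 2, -0.43 in mouse 3 and -0.63 in mouse 5, and -0.90 for the members on all 12 arrays. Etfdh, which passes electrons from fatty acid oxidation to ubiquinone, had -1.24, -1.54, -0.73 and -1.05 (mean -1.14 ± 0.34, SD, n = 4, limma p 0.00372). Acaa1b, the peroxisomal thiolase, had -0.86, -1.58, -0.81 and -0.86. Fabp1, the fatty acid binding protein of liver, had -1.54, -2.12, -0.06 and -1.15, with mouse 3 at the pool. Each of the 3 genes had all 4 animals below 0. Cyp4a14, a fatty acid hydroxylase switched on by PPARA, had -1.24 in mouse 1, -0.81 in mouse 2 and -1.97 in mouse 3, but -0.30 in the Cy5 and -2.26 in the Cy3 orientation.

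Other liver functions were mostly below 0 as well, with smaller shares of their tested genes at a p under 0.05. Of 30 genes of drug and xenobiotic metabolism, 25 were below 0, 11 of them at a p under 0.05, and 1 (Cyp3a13) was above 0 at that level, with a median of -0.53. Sult1a1, a sulfotransferase, had -1.30, -2.93, -0.97 and -1.40 in mice 1, 2, 3 and 5, and its mean of -1.65 ± 0.87 (SD, n = 4, limma p 0.00254) rested most on mouse 2. Cyp3a11, the main hepatic Cyp3a enzyme, had -1.22, -2.71, -0.67 and -0.99, and Gsta2, a glutathione transferase, -1.10, -1.56, -0.73 and -1.73. All animals were below the pool for these 3 genes, which belong to families of similar sequence whose probes may share signal. Urea cycle and amino acid breakdown had 9 genes below and 3 above 0 at that level among 27, with a median of -0.56. The 3 above were Glul, which makes glutamine, and the mitochondrial enzymes Aldh4a1 (1.26 ± 0.65) and Bckdhb (1.27 ± 1.17, SD, n = 4 each). Aldh4a1 had 0.41 in the Cy5 and 2.11 in the Cy3 orientation, and Bckdhb 2.20 and 0.34. Both were measured on 10 of the 12 arrays, and Bckdhb was highest in mouse 5 at 2.95. Acute phase proteins had 5 of 17 below and 0 above, complement and coagulation 5 of 18 below and 1 (C1qb) above, and methionine, cysteine and glutathione metabolism 5 of 13 below and 0 above. Their medians were -0.64, -0.62 and -0.65. In lipogenesis and lipid storage 6 of 25 were below at that level, among them Scd1, the stearoyl-CoA desaturase, with -2.06, -2.15, -0.63 and -0.86. Angptl4, an inhibitor of lipoprotein lipase, had -0.79, -1.88, -2.81 and -0.68, lowest in mouse 3. In glucose metabolism 4 of 19 (21.1%) were below, including Pck2 (-1.17, -0.96, -0.95 and -0.47), the mitochondrial PEP carboxykinase. All 4 were among the 12 complete genes of that list, so 33.3% stood beside 16.4% of the complete genes. In drug metabolism this share was 34.8%, in acute phase proteins 36.4% and in complement and coagulation 40.0%. It was 47.4% in urea cycle and amino acid breakdown and 50.0% in lipogenesis and lipid storage. In methionine, cysteine and glutathione metabolism it was 62.5% (5 of 8), near that of fatty acid oxidation.

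Groups of housekeeping genes also lay mostly below the wild-type pool. Of 46 cytosolic ribosomal protein genes, 40 were below 0, 16 of them at a p under 0.05 and 0 above at that level, with a median of -0.61. Rpl9 had -1.06, -1.99, -0.38 and -0.99. Of 52 respiratory chain genes, 44 were below 0, 18 of them at a p under 0.05, with a median of -0.63, and 1 (Atp5e, 1.68 ± 1.04, SD, n = 3) above at that level. Cox5b, a subunit of cytochrome c oxidase, had -0.95, -1.73, -0.99 and -0.93 (limma p 0.00399). Proteasome genes had 4 of 22 below (18.2%) and 2 above, with a median of -0.51. Among the complete genes 37.8% of the ribosomal, 41.7% of the respiratory and 30.0% (3 of 10) of the proteasome genes were below 0 at a p under 0.05, against 16.4% of all complete genes. The difference between these groups and the liver functions was not tested. So the groups with medians below -0.4 were not limited to liver-restricted genes. Ribosomal protein genes have many processed pseudogenes of similar sequence, so single probes are uncertain.

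Across the 25 lists with at least 5 tested genes, 13 had a median below -0.4. All 13 were lowest in mouse 2, all 13 were below 0 in each dye orientation, and 12 were below 0 in each of the 4 animals. The exception was a list of genes that the study had chosen in C3H liver, which was above 0 in mouse 5 (0.31). Urea cycle and amino acid breakdown lay at the pool in mouse 3 (-0.0005). The same animals and orientations entered the medians by which the 13 lists were picked, so shared signs are partly built in. Without mouse 2, 7 of the 13 were below -0.4 and all 13 below 0. The other 6 had medians of -0.30 for drug metabolism, -0.35 for acute phase proteins, -0.38 for complement and coagulation, -0.39 for ribosomal proteins, -0.34 for the proteasome and -0.14 for the study's list. Without mouse 3 the median of drug metabolism was -0.80. The complete members of all 13 had medians below that of all genes on 12 arrays. In C3H liver the study's list had a median of -0.83, but it had been chosen as lower in those animals. The other 12 were below 0 in C3H liver too, each closer to 0. Lists near 0 were cell cycle (0.19, 1 of 25 above and 0 below at a p under 0.05) and immediate early and stress genes (0.19, 3 of 17 above and 1 below). With 1 animal left out their medians lay between -0.10 and 0.22 and between -0.02 and 0.15. Mt2 and Klf6, a metallothionein and an early transcription factor, averaged 1.01 ± 0.49 (SD, n = 3) and 1.02 ± 0.51 (SD, n = 4).

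**Figure D4:**
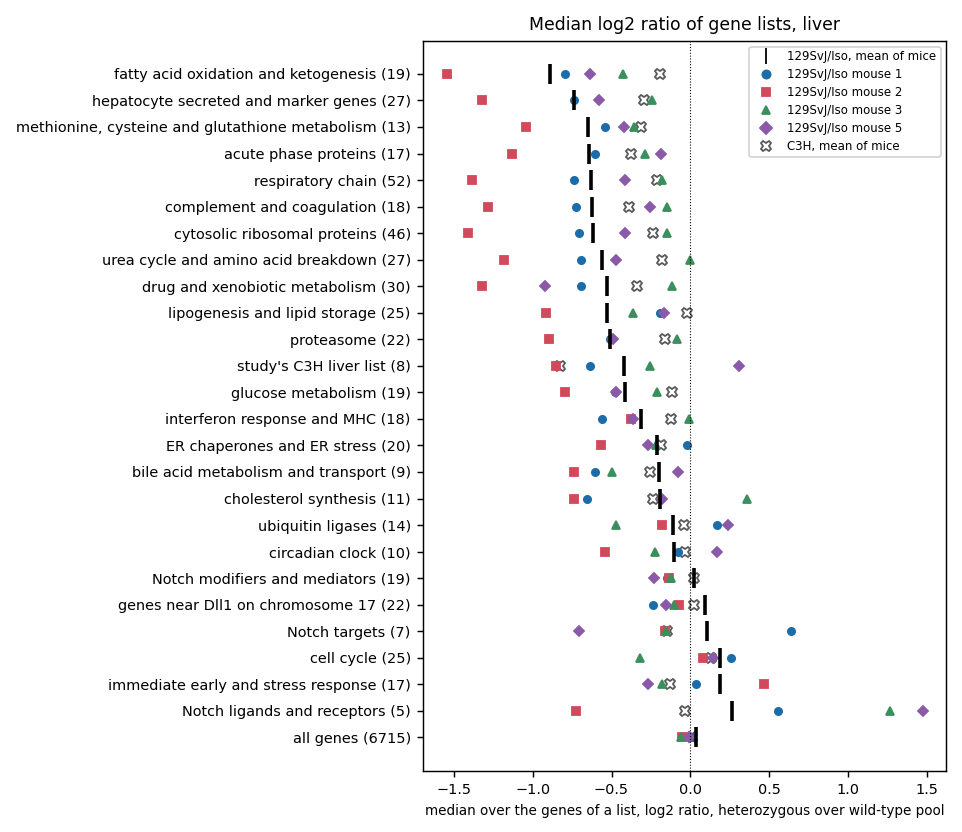
Median log2 ratio (x axis) of each gene list in liver, with the number of genes tested in brackets; black bars are the 129SvJ/Iso median of the means over animals, coloured symbols each 129SvJ/Iso animal and open crosses the C3H median. Metabolic, plasma protein, ribosomal and respiratory lists lie below -0.4 with mouse 2 lowest, whereas all genes lie at 0.04.

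The list that the study drew from C3H liver had been chosen on other animals, so its values in 129SvJ/Iso are not affected by the choice. Of its 13 genes 8 were matched on the array by symbol, and all 8 were tested. All 8 were below 0 in 129SvJ/Iso, with 0 at a p under 0.05 and a median of -0.42, against -0.83 in the C3H animals they were chosen in. The median was -0.14 without mouse 2 and -0.25 without mouse 1. As background, 47.6% of all tested genes were below 0, and 69.2% of the complete genes, those with a value on every array. Of the 8 genes 5 were complete, with a median of -0.38 against -0.26 over all complete genes. The part of this background in the shared sign of the 8 genes was not tested. Cth, the cystathionine gamma-lyase, had -0.97, -2.40, -0.93 and 1.41 in mice 1, 2, 3 and 5, and mouse 5 stood opposite to the others. Cyp2c70, an enzyme of murine bile acid synthesis, had -0.55, -1.41, -0.17 and 0.30. Hmgcs1, of cholesterol synthesis, had -0.83, -0.50, -0.05 and 0.32. Siah1a, a ubiquitin ligase, went the other way by animal, with 0.19, -0.10, -0.26 and -1.99, so mouse 5 was lowest.

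Markers of other cell types were examined beside these groups. The 14 tested hepatocyte markers had a median of -0.82, with 13 below 0 and 9 of them at a p under 0.05. Of 7 muscle markers all were above 0, 3 at that level (42.9%, against 7.42% of all genes). Their median was 0.80, with means between 0.31 (Tnni2) and 1.43 (Ckm). Ckm, muscle creatine kinase, had 1.20 in mouse 1, 1.52 in mouse 2 and 1.58 in mouse 5. Of 9 endothelial markers 7 were above 0, 1 (Vwf, 1.02 ± 0.92, SD, n = 4) at that level, with a median of 0.41 that came to 0.97 without mouse 2 and 0.62 without mouse 1. Of 5 erythroid markers 3 were below 0, 2 of them at a p under 0.05, and 2 above, with a median of -0.91 that lay between -0.79 and -0.44 with 1 animal left out. Hba-a1 and Alas2, the alpha-globin and the first enzyme of haem synthesis of red cells, averaged -1.15 ± 0.57 and -0.99 ± 0.43 (SD, n = 4 each) and were below 0 in every animal, whereas Slc4a1, the anion exchanger of red cells, averaged 0.42 ± 0.98 (SD, n = 4) with 3 animals above 0. The 6 tested granulocyte markers were all above 0, between 0.08 and 0.53, with 0 at a p under 0.05, but their median was -0.20 in the Cy5 and 1.35 in the Cy3 orientation. Their median of 0.26 came to 0.06 without mouse 5. A value on all 12 arrays was held by 11 of the 14 hepatocyte markers. It was held by 1 of 7 muscle, 2 of 9 endothelial and 2 of 6 granulocyte markers. Those complete markers had medians of -0.81, 0.48, 0.07 and 0.09, in that order. Over all probes the median also fell with coverage, and the part of coverage in these contrasts was not tested. The part of cell mixture in the ratios of the liver groups was not tested.

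The single probes named here reached larger ratios, none past adjustment. The named probes were the 12 of smallest p in each direction, with 1 gene symbol and the same sign in all 4 animals and both orientations. They ran from 1.42 to 2.12 above 0 and from -1.17 to -1.65 below. Fam234a, a membrane protein gene that like Dll1 lies on chromosome 17, had 1.89, 1.20, 1.45 and 1.76 in mice 1, 2, 3 and 5 (mean 1.57 ± 0.31, SD, n = 4). Emilin2, the other chromosome 17 gene among these probes, was below 0 in every animal, with a mean of -1.17 ± 0.16 (SD, n = 4). Pafah1b2, a subunit of platelet-activating factor acetylhydrolase, had 1.71, 1.05, 2.19 and 1.74. Pctp, a phosphatidylcholine transfer protein, had 3.06, 2.37, 0.84 and 2.20 on 8 of the 12 arrays, which makes it one of the less complete probes. Tcf4 had 1.31, 1.74, 0.79 and 2.13. In the other direction, Asns, the asparagine synthetase, had -1.18, -1.30, -1.02 and -1.93 (mean -1.36 ± 0.40, SD, n = 4). Herpud1, a gene of the unfolded protein response, had -1.06, -2.14, -1.34 and -0.96, and Nup155, a nucleoporin, -2.12, -1.93, -1.80 and -0.69. Pex19, needed for peroxisome assembly, had -1.19, -1.17, -1.11 and -1.20, an SD of 0.04. Both Asns and Herpud1 were measured on all 12 arrays, and their C3H means were 0.06 ± 0.19 (SD, n = 5) and 0.09 ± 1.54 (SD, n = 3).

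**Figure D5:**
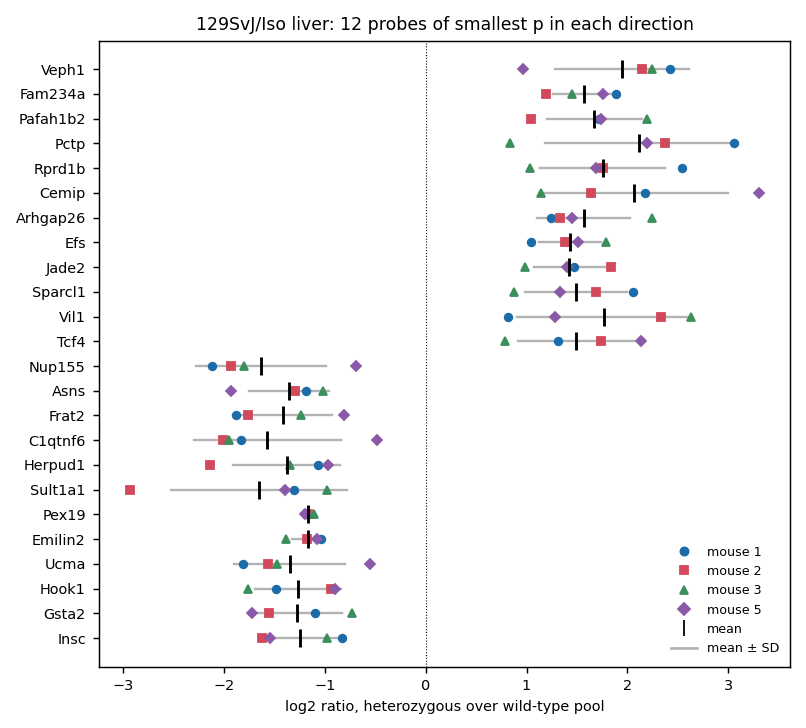
Log2 ratio, likely heterozygous over wild-type pool (x axis), of the 12 probes of smallest p in each direction in 129SvJ/Iso liver; symbols are animals, black bars their mean and grey lines the mean ± SD. Every animal lies on the same side of 0 for each probe, and Pex19 has the narrowest spread.

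Set against C3H liver in 1 limma model over the animals of both strains, 38 of 13201 probes (0.288%) differed after adjustment, with adjusted p between 0.0418 and 0.0498. Of these, 36 were higher and 2 lower in 129SvJ/Iso, and 27 had a gene symbol. The differences ran from -1.55 to 2.64. Among them Lfng had 1.62 in 129SvJ/Iso and -0.17 in C3H. Psma6, a proteasome subunit, had 1.31 in 129SvJ/Iso and -0.36 in C3H, and Ckm had 1.43 in 129SvJ/Iso and -0.01 in C3H. The 2 lower probes were Trpm5, an ion channel with -1.33 in 129SvJ/Iso and 0.22 in C3H, and Asns, with -1.36 in 129SvJ/Iso and 0.06 in C3H. This fit assumes 1 spread for both strains, although the median SD was 0.661 in 129SvJ/Iso and 0.253 in C3H. With a variance weight per strain 0 probes passed, with 1511 at an unadjusted p under 0.05, and 0 passed when any 1 of the C3H animals was left out. The strain, the wild-type pool, the age and the array quality differ together between the groups and cannot be told apart. Of the 15 hepatocyte genes below 0 at a p under 0.05, 13 were below 0 in C3H as well. So were 24 of all 27 genes of that list and 3193 of the 6635 genes with a C3H value. The strain difference had a p under 0.05 for 5 of the 15, with the lowest adjusted p at 0.111, and for 1242 of the 6635 genes. The 15 had been chosen by their low 129SvJ/Iso values, which enter that difference.

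Set against spleen of the same strain, 0 of 11026 probes (0%) differed after adjustment by limma, and 1132 had an unadjusted p under 0.05. Blocking on the animal, which pairs liver and spleen of mice 1, 2, 3 and 5, left 0 probes of 11825, and 1006 reached a p under 0.05 before adjustment. The random block over all arrays called 118.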

How the data were processed

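The deposited values are log2 ratios of 2-colour cDNA arrays; the labels and the study state no normalization by the authors beyond naming the TM4 software. Of 20794 probes, 12771 had 1 gene symbol in the platform annotation and 8023 had none. Spots at the extreme constant of an array (100 to 548 per array, taken as ratios past the scanner's limit) were set to missing. The 12 arrays were averaged by animal within and then over dye orientations, a probe needing a value in each orientation. Probes or genes with at least 3 animals were tested against 0 with limma 3.58.1 in R 4.3.3 (lmFit, eBayes, two-sided, Benjamini-Hochberg, threshold 0.05), after the script was tested on simulated data. Strain and organ differences used the same model. Liver and spleen of mice 1, 2, 3 and 5 come from the same animals; deviations of their pairs correlated at 0.0222, 0.0251, 0.0371 and 0.00197. Members and gene lists were chosen with earlier results of these data known. Named probes were the 12 of smallest p per direction, with 1 gene symbol and the same sign in all 4 animals and both orientations. Within lists, the named genes were mostly taken from those at an unadjusted p under 0.05, or from the largest means in lists without such a gene. Some others, among them Hes1, Hey1, Sox9, Adam17, Aph1a, Maml1 and Psmb1, were named outside this rule. All tested ligands and receptors were named too. Of the study's C3H list only Cth, Cyp2c70, Hmgcs1 and Siah1a were named. The animals are separate, and the p-values cover the spread between them but not between wild-type animals. The number of arrays and animals limits the precision.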

Additional observations from a re-analysis of the deposited data

Results flagged for a closer look

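Among 173 results with 4 animals, 9 had 1 animal far from the other 3 by Dixon's gap criterion, where chance gives about 1 in 20. Mouse 5 stood apart for the C1qtnf6 probe at -0.48 (the nearest other animal at -1.83), for Dcn at -0.30 (-0.92) and for Hba-a1 at -0.31 (-1.35). Mouse 3 stood apart for Lpin1 at -2.93 (nearest -0.68), Slc4a2 at 1.05 (-0.21), Gad1 at 2.01 (0.47) and Lpl at 2.32 (-0.17). Mouse 2 stood apart for Acaa1b at -1.58 (nearest -0.86) and Cox5b at -1.73 (-0.99). For all of these except Slc4a2 and Lpl, the 4 animals were on the same side of 0. Whether technical differences of single arrays account for these values was not tested.

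The difference between the strains passed adjustment for 38 probes in the equal-variance fit, and it was tested by that contrast. Of the 13 probes among them that belong to a named list or to the named probes, or that were lower in 129SvJ/Iso, those above C3H had differences (129SvJ/Iso minus C3H) of 2.36 for Pctp, 1.80 for Cyp3a13, 1.79 for Lfng, 1.72 for Pafah1b2, 1.69 for Rprd1b, 1.67 for Psma6, 1.49 for Fam234a, 1.49 for Glul, 1.44 for Jade2, 1.44 for Ckm and 1.42 for Mt2. Those below C3H had differences of -1.55 for Trpm5 and -1.41 for Asns. Glul, Mt2 and Lfng had 2 probes each. With the probes of a gene averaged, the strain differences were 1.11 for Glul, 1.14 for Mt2 and 1.71 for Lfng. Their limma adjusted p over genes was 0.0911, 0.0855 and 0.0341, so Glul and Mt2 did not pass as genes. A fit with a variance weight per strain made 0 calls.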

How the results depend on the processing

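Under every alternative run except the random block, 0 probes and 0 genes passed adjustment in 129SvJ/Iso liver; the random block over all arrays gave 589 probes and 353 genes, by counting arrays of 1 animal as further evidence. Leaving out 1 animal gave 582 to 1937 probes and 389 to 998 genes at an unadjusted p under 0.05, from 5925 to 10901 probes tested because the other 3 animals must all have values. Probes at that level numbered 905 higher and 1084 lower with the median of each array subtracted (411 and 607 genes), 445 and 824 for probes in all 4 animals, and 1593 and 496 with a plain mean of arrays, against 1058 and 841. The 38 strain differences became 13 with medians subtracted, 104 with arrays scaled, 92 after quantile normalization, 0 with extreme values kept, with a plain mean or with any 1 array enough, 23 for probes in all animals, 304 with at least 2, 0 on Cy5 and 25 on Cy3 arrays only, 13 with robust eBayes, 230 with the random block and 0 with variance weights; without 1 animal they ran from 0 to 253, with 253 reached without mouse 3 of 129SvJ/Iso and 0 without any 1 C3H animal. The spleen difference gave 118 with the random block and 0 with the replicate block, which changed no call; without 1 animal it stayed at 0. Setting ratios of exactly 1 to missing, chosen after seeing the data, left 0 probes. Of 2775 comparisons for 169 named results, 2164 kept their side of the threshold, 603 did not and 8 reversed: Pmvk at 0.34 (plain mean), 0.33 (any array) and 0.75 (Cy5 only); Hamp at 1.37 (extremes kept) and 0.22 (Cy3 only); Serpind1 at 0.48, Ttr at 0.47 and Rps27l at 1.52 with extremes kept. The cause was not tested. The hepatocyte list median stayed between -0.91 and -0.53 over 18 settings. Low coverage, above all in mouse 3, limits these values.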

Other observations

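Some further gene groups were measured. Of 18 genes of the interferon response and antigen presentation, 12 were below 0, with 2 below and 1 above at a p under 0.05 and a median of -0.32. B2m, the light chain of MHC class I, had -1.23 in mouse 1, -1.84 in mouse 2, -0.07 in mouse 3 and -1.01 in mouse 5. Tap1, the peptide transporter of the same pathway, had 1.42, 0.95, 0.05 and 0.84 in the same animals. The 2 genes thus lay on opposite sides of the wild-type pool, and mouse 3 was close to the pool in both. Of 20 genes of ER chaperones and ER stress, 13 were below 0, with a median of -0.21. At that level 3 were below (Herpud1, Hspa5 and Calr, 15.0%, against 7.18% of all genes). The 9 members on all 12 arrays were all below 0, 3 of them at that level (33.3%, against 16.4% of the complete genes), with a median of -0.46. Hspa5, the chaperone BiP, averaged -0.83 ± 0.75 in 129SvJ/Iso (SD, n = 4) and -0.95 in C3H. In bile acid metabolism Abcb11, the bile salt export pump, had -1.01, -0.74, -0.50 and -0.95 in mice 1, 2, 3 and 5.

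Markers of non-parenchymal cells did not share 1 direction. The cholangiocyte keratin Krt7 had 1.83, 1.03 and 0.24 in mice 1, 2 and 5, and Epcam, of bile duct cells, had 1.24, 1.03, 0.55 and -0.07 in mice 1, 2, 3 and 5. Among stellate and fibroblast markers Rgs5 ran between -1.41 in mouse 3 and -0.86 in mouse 2 and Dcn, decorin, averaged -0.79 ± 0.33 (SD, n = 4), whereas Des, desmin, averaged 0.78 ± 0.62 (SD, n = 4). The macrophage gene Cd163 averaged -0.98 ± 0.55 (SD, n = 4) and Fcer1g 1.36 ± 0.70 (SD, n = 3), with Fcer1g at 2.38 in the Cy3 and 0.20 in the Cy5 orientation. None of these genes passed adjustment in limma.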
